A study of Mus musculus with 6 samples.

Results

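The genes described here are 33 genes of autophagy and the lysosome: those that build the autophagosome, its cargo receptors, the TFEB family of transcription factors, and lysosomal membrane proteins and hydrolases. They were taken by gene symbol from a deposited count table of 30438 symbols. All 33 were listed, and all 33 had enough counts to be tested among 14618 genes. RNA was sequenced from HEI-OC1, a conditionally immortalised mouse line established from the auditory organ, the organ of Corti, and labelled as a cochlear stem cell. There were 3 libraries labelled Nrf2 KO, called KO-labelled here, and 3 libraries of the unedited line as control. Nrf2 is the protein of Nfe2l2, a transcription factor that drives antioxidant genes. Both groups were grown at 33 °C in 10% CO2 with 10% fetal bovine serum, and no drug is recorded for either. The series asks what could account for the cisplatin resistance of the knockout cells, and its 1 comparison is KO against control without cisplatin. The sources used here do not say how the edit was made, whether the knockout line is 1 clone, or whether replicates were separate cultures. The p-values then measure the spread between these libraries, which may be technical.

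Library totals ran from 29130007 to 51285343 counts, with the lowest in KO-labelled replicate 1. That library stood apart: across genes, Pearson's r of its log2 CPM (counts per 1000000, TMM-scaled) was 0.931 and 0.939 with the other KO-labelled replicates, which had an r of 0.995 with each other. Nfe2l2, the targeted gene, was at 396, 236 and 205 CPM in the KO-labelled libraries and 74.2, 126 and 96.7 CPM in the controls. The transcript was higher in every KO-labelled library than in any control, with a log2 fold change of 1.49 (standard error 0.33, adjusted p = 0.0456) in edgeR's quasi-likelihood test. The counts show no loss of this transcript, and they do not show whether it is intact or whether its protein is made. Higher or lower is always said of the libraries as labelled. Leaving out any library except KO-labelled replicate 1 ended the Nfe2l2 call, with adjusted p from 0.0784 to 0.202. Of 9 hair cell markers in the table, Atoh1, Slc26a5, Slc17a8 and Tmc1 were at 0 counts in all 6 libraries and 2 were tested: Myo7a was higher, with a log2 fold change of 3.95 (standard error 0.36, adjusted p = 0.00348), and Myo6 had 0.37 (standard error 0.27, adjusted p = 0.460). Of 10 supporting cell and prosensory markers, Sox2 was at 0 in all 6 and 5 were tested. Sox9 was higher, with a log2 fold change of 2.19 (standard error 0.27, adjusted p = 0.00810), and the others did not pass, with 0.57 for Jag1, -0.34 for Fgfr3, -0.32 for Cdkn1b and -0.39 for S100a1. The hair cell list summed to 62.5, 76.5 and 67.1 CPM in the KO-labelled libraries and 32.97, 45.05 and 37.8 CPM in the controls, and the supporting cell list to 534, 365 and 410.3 CPM in the KO-labelled libraries and 455, 375 and 420.2 CPM in the controls.

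In macroautophagy the ULK1 kinase complex and a class III phosphatidylinositol 3-kinase complex start a cup-shaped membrane, which WIPI proteins and ATG9 vesicles help to extend. Ubiquitin-like conjugation reactions then attach LC3 and GABARAP proteins to that membrane, receptors such as p62 tether cargo to them, and the closed autophagosome fuses with a lysosome whose hydrolases digest the contents. TFEB, TFE3 and MITF bind E-box elements (CACGTG) in the promoters of many lysosomal and autophagy genes and are held in the cytoplasm by mTORC1 when nutrients are plentiful. p62, encoded by Sqstm1, also binds KEAP1, the adaptor that marks NRF2 for degradation, and Sqstm1 is a known NRF2 target.

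With all 6 libraries, 0 of the 33 genes passed an adjusted p of 0.05 (Benjamini-Hochberg over all 14618 genes tested, edgeR's quasi-likelihood test), beside 8.28% of all genes, 4.83% higher and 3.45% lower. The lowest adjusted p was 0.0527, for Atg12. At an unadjusted p under 0.05, Tax1bp1, Wipi1 and Lamp2 were higher and Atg12 and Map1lc3a lower. These 5 are 15.2% of the 33 genes, beside 25.0% of all genes tested (13.4% higher and 11.6% lower). With the replicate number as a block, edgeR called the same 5 at an adjusted p of 0.05, beside 18.3% of all genes (10.4% higher and 7.92% lower). DESeq2 called 4 of them, all but Lamp2 (12.1%, beside 14.7% of all genes, 8.25% higher and 6.43% lower), and limma-voom called 0 (8.57% of all genes). In bulk RNA, fewer cells of a type and less RNA per cell cannot be told apart.

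Log2 fold changes of the 33 genes, KO-labelled over control, ran from -1.14 for Map1lc3a to 1.06 for Tax1bp1, and 19 were positive. Their median was 0.078, beside 0.044 over all genes tested, and it was -0.028 with limma-voom and -0.022 with the block. Their median absolute size was 0.28, beside 0.36 over all genes. In 3 genes, Wipi1, Tax1bp1 and Lamp2, every KO-labelled library was above every control. In 5 genes, Ulk2, Atg4b, Atg12, Map1lc3a and Tfeb, every KO-labelled library was below. Together these 8 are 24.2% of the 33 genes, beside 34.2% of all genes tested (17.1% above and 17.1% below).

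**Figure D1:**
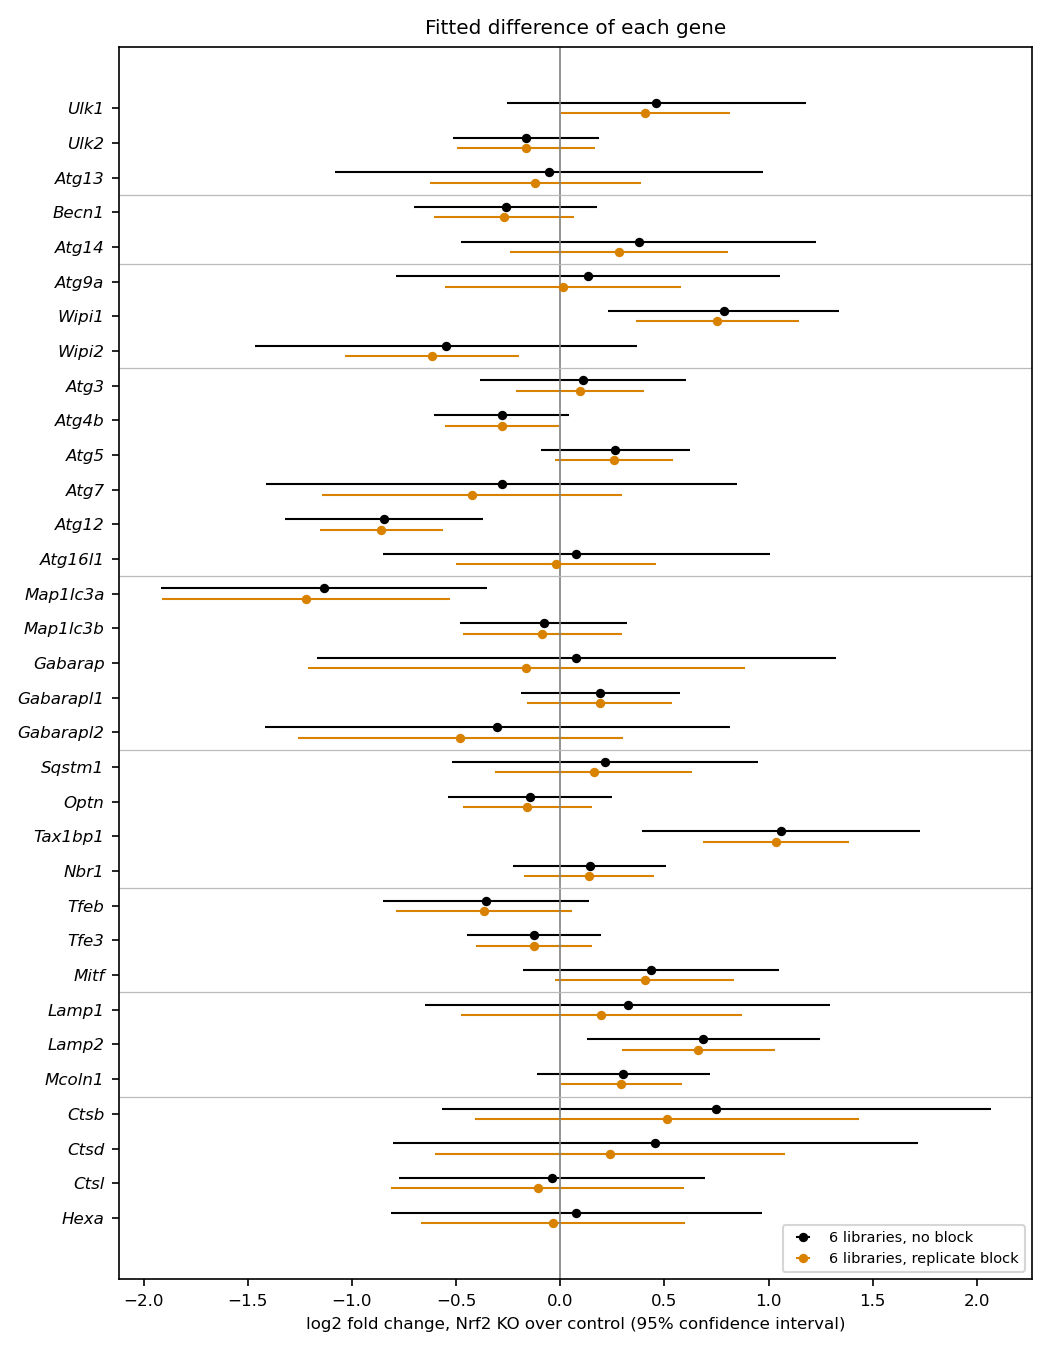
Log2 fold change of each of the 33 genes, Nrf2 KO over control, with its 95% confidence interval from edgeR without (black) and with (orange) the replicate number as a block; grey lines part the roles. Intervals of Wipi1, Tax1bp1 and Lamp2 lie above 0 and those of Atg12 and Map1lc3a below 0 in both fits, while that of Ctsb without the block spans -0.57 to 2.07.

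Promoters of 28 of the 33 genes, 35 windows of 300 bases from 250 before to 50 after the start, are in the RefSeq table of build GRCm38.p6. Each was searched on both strands for CACGTG, the core of the TFEB element, and for TGACNNNGC, the core of the antioxidant response element bound by NRF2. CACGTG stood in the window of 8 of the 28 genes (28.6%), beside 8.09% of the 27025 genes of that table: Atg3, Atg5, Atg7, Atg14, Ctsd, Ctsl, Lamp1 and Mcoln1. TGACNNNGC stood in that of 7 genes (25.0%), beside 14.0% of all: Atg13, Ctsd, Hexa, Map1lc3b, Mitf, Tax1bp1 and Ulk2. Matches of the pair of motifs overlapped 0 times in these windows. A match describes letters and is not a bound site. Atg12, Atg16l1, Becn1, Ctsb and Map1lc3a had no entry in that table, so their promoters were not searched. The 250 bases before the start are shown for 3 lysosomal genes with repeated CACGTG, and for the 3 genes higher with the block, which lack it. Capitals mark CACGTG in Lamp1, Mcoln1 and Ctsd and TGACNNNGC in Tax1bp1. The printed bases of Ctsd also hold TGACNNNGC matches, which are left unmarked. Lamp2 and Wipi1 hold neither.
Lamp1, GRCm38.p6 chr8:13158911-13159160, plus strand: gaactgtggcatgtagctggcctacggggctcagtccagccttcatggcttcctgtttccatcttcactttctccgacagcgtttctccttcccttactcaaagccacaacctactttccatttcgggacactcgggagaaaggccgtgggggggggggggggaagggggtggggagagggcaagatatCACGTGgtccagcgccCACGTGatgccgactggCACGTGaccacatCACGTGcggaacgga
Mcoln1, GRCm38.p6 chr8:3500269-3500518, plus strand: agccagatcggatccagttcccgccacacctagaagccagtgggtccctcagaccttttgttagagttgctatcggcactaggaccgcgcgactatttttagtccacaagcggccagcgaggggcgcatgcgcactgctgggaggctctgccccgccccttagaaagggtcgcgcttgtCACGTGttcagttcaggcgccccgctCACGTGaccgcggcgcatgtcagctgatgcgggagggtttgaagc
Ctsd, GRCm38.p6 chr7:142387828-142388077, minus strand: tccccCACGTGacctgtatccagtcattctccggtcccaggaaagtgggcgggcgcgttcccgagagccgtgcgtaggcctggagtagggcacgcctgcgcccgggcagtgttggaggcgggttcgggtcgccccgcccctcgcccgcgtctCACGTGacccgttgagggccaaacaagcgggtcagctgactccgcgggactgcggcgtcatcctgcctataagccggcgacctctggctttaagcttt
Lamp2, GRCm38.p6 chrX:38456461-38456710, minus strand: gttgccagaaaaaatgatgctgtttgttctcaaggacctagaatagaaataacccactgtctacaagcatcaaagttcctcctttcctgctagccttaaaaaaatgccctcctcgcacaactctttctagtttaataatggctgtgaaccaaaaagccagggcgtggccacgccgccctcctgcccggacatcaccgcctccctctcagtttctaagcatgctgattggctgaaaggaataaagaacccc
Wipi1, GRCm38.p6 chr11:109611390-109611639, minus strand: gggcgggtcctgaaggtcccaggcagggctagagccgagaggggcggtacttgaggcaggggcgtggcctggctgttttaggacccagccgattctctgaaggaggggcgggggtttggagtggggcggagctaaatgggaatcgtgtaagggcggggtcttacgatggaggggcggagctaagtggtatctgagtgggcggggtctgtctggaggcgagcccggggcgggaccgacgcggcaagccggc
Tax1bp1, GRCm38.p6 chr6:52713915-52714164, plus strand: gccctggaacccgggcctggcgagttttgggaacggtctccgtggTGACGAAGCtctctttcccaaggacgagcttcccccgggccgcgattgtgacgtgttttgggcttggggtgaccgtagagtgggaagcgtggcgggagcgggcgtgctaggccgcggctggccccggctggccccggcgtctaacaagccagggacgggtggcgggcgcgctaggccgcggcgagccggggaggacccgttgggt
Lamp1 held 4 copies of CACGTG, the first starting 61 bases before the start of the gene and the last 15 bases before it. Mcoln1 held 2 copies, 71 and 45 bases before the start, and Ctsd 2 copies, 245 and 98 bases before it. In Tax1bp1 the TGACNNNGC match began 205 bases before the start.

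Among the genes that start the autophagosome, none passed and there was no common direction. Ulk1, the kinase that receives the starvation signal, was at 63.6, 33.6 and 34.4 CPM in the KO-labelled libraries and 37.8, 30.05 and 27.7 CPM in the controls. KO-labelled replicate 1 was the highest of the 6 and the groups overlapped. Ulk1 had a log2 fold change of 0.46 (standard error 0.30, adjusted p = 0.407). Ulk2, its paralog, was at 18.9, 18.1 and 18.3 CPM in the KO-labelled libraries and 19.4, 22.7 and 19.98 CPM in the controls, with the KO-labelled libraries below by a narrow margin. Ulk2 had a log2 fold change of -0.17 (standard error 0.15, adjusted p = 0.552). Atg13, the adaptor of the kinase complex, was at 4.63, 12.7 and 10.3 CPM in the KO-labelled libraries and 6.84, 12.98 and 8.92 CPM in the controls. Atg13 had a log2 fold change of -0.056 (standard error 0.42, adjusted p = 0.958), with a 95% interval of -1.08 to 0.97.

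Becn1 encodes beclin 1, the scaffold of the lipid kinase complex, and was at 252, 309.8 and 338 CPM in the KO-labelled libraries and 329, 367 and 383 CPM in the controls. Only KO-labelled replicate 3 reached the control range. Becn1 had a log2 fold change of -0.26 (standard error 0.18, adjusted p = 0.440). Atg14, the subunit that directs this complex to the forming autophagosome, was at 40.9, 17.6 and 19.7 CPM in the KO-labelled libraries and 23.6, 18.6 and 18.02 CPM in the controls. KO-labelled replicate 1 was far above the other 5 libraries. Atg14 had a log2 fold change of 0.38 (standard error 0.35, adjusted p = 0.581) with it and of -0.11 (adjusted p = 0.623) without it.

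Wipi1 and Wipi2, paralogs that read the lipid made by that kinase, had fold changes of opposite sign. Wipi1 was at 78.05, 49.6 and 49.1 CPM in the KO-labelled libraries and 37.4, 30.2 and 34.99 CPM in the controls. Every KO-labelled library was above every control, and replicate 1 was the highest. Wipi1 averaged 58.9 ± 16.6 CPM in the KO-labelled libraries and 34.2 ± 3.67 CPM in the controls (SD, n = 3 each). The log2 fold change of Wipi1 was 0.78 (standard error 0.23, adjusted p = 0.0940), or 0.75 (adjusted p = 0.0337) with the block and 0.52 (adjusted p = 0.0230) without KO-labelled replicate 1. Wipi2, the paralog that recruits ATG16L1, was at 14.7, 35.96 and 33.6 CPM in the KO-labelled libraries and 29.4, 49.3 and 44.7 CPM in the controls. In Wipi2 replicate 1 was the lowest of both groups, and the groups overlapped. Wipi2 had a log2 fold change of -0.55 (standard error 0.38, adjusted p = 0.441), or -0.62 (adjusted p = 0.0599) with the block.

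Atg9a, the lipid scramblase of ATG9 vesicles, was at 209, 83.7 and 90.1 CPM in the KO-labelled libraries and 136, 104 and 108 CPM in the controls. It was highest in KO-labelled replicate 1, while the other KO-labelled libraries were below all controls. Atg9a had a log2 fold change of 0.13 (standard error 0.38, adjusted p = 0.877) with all libraries, of -0.42 (adjusted p = 0.0726) without KO-labelled replicate 1, and of -0.28 (adjusted p = 0.0213) without replicate 1 of both groups.

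Of the 6 conjugation genes, Atg12 was the nearest to a call. ATG12 is the ubiquitin-like protein that is joined to ATG5 and, with ATG16L1, directs LC3 lipidation. Atg12 was at 30.04, 42.9 and 42.99 CPM in the KO-labelled libraries and 59.9, 75.5 and 73.2 CPM in the controls. Every KO-labelled library was below every control. Atg12 averaged 38.7 ± 7.47 CPM in the KO-labelled libraries and 69.5 ± 8.39 CPM in the controls (SD, n = 3 each). The log2 fold change of Atg12 was -0.85 (standard error 0.20, adjusted p = 0.0527), with a 95% interval of -1.32 to -0.37. It was -0.86 (adjusted p = 0.0136) with the block and -0.70 (adjusted p = 0.0116) without KO-labelled replicate 1. Atg12 was also the 1 member called, lower, with RLE scaling (adjusted p = 0.0497, beside 3.45% of all genes lower) and with the upper quartile (adjusted p = 0.0312, beside 4.08%). The same held with no scaling beyond library size (adjusted p = 0.0303, beside 3.66%) and with a filter of 1 CPM (adjusted p = 0.0409, beside 3.80%). Leaving out 1 of the other 5 libraries gave adjusted p from 0.118 to 0.239. Its log2 fold change lay between -0.94 and -0.70 in all these alternatives. Atg12 overlaps Ap3s1 in the mouse RefSeq table, and with no stated strand setting reads of the pair cannot be separated.

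Atg5, the partner of ATG12, was at 48.3, 59.01 and 59.3 CPM in the KO-labelled libraries and 43.3, 46.9 and 48.5 CPM in the controls. The KO-labelled libraries met the controls at replicate 1. Atg5 had a log2 fold change of 0.26 (standard error 0.15, adjusted p = 0.338), or 0.35 (adjusted p = 0.0429) without that library. Atg16l1, the scaffold that holds the conjugate on the membrane, was at 96.2, 40.1 and 42.4 CPM in the KO-labelled libraries and 70.1, 45.7 and 53.6 CPM in the controls. Replicate 1 was the highest library of both groups. Atg16l1 had a log2 fold change of 0.078 (standard error 0.38, adjusted p = 0.934), or -0.46 (adjusted p = 0.110) without KO-labelled replicate 1, and -0.022 (adjusted p = 0.944) with the block.

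Atg3, the enzyme that hands LC3 to its lipid, was at 101, 136 and 156 CPM in the KO-labelled libraries and 106, 127 and 133 CPM in the controls. Atg3 had a log2 fold change of 0.11 (standard error 0.21, adjusted p = 0.807), with overlapping groups. Atg7, the activating enzyme shared by both conjugation reactions, was at 4.12, 13.97 and 13.2 CPM in the KO-labelled libraries and 9.67, 15.3 and 13.1 CPM in the controls. KO-labelled replicate 1 was its lowest library, and the 95% interval of the log2 fold change was -1.41 to 0.85. Atg4b, the protease that trims and recycles LC3, was at 43.7, 48.2 and 48.05 CPM in the KO-labelled libraries and 52.1, 58.8 and 59.1 CPM in the controls. The KO-labelled libraries were below all controls, by less than in Atg12. Atg4b had a log2 fold change of -0.28 (standard error 0.14, adjusted p = 0.265), or -0.29 (adjusted p = 0.0189) without replicate 1 of both groups.

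The 5 genes of LC3 and GABARAP proteins, which carry the autophagosome's lipid tag, differed among themselves. Map1lc3a, an LC3 gene, was at 10.4, 18.7 and 25.7 CPM in the KO-labelled libraries and 39.99, 39.5 and 40.9 CPM in the controls. The controls were almost level, and the KO-labelled libraries were all below them, each at a different level. Map1lc3a averaged 18.3 ± 7.67 CPM in the KO-labelled libraries and 40.1 ± 0.674 CPM in the controls (SD, n = 3 each). The log2 fold change of Map1lc3a was -1.14 (standard error 0.32, adjusted p = 0.0886), a fitted ratio of 0.455. It was -1.22 (adjusted p = 0.0407) with the block and -0.86 (adjusted p = 0.00992) without KO-labelled replicate 1. Map1lc3b, the LC3 gene most used as an autophagosome marker, was at 129, 155 and 172 CPM in the KO-labelled libraries and 169, 149 and 163 CPM in the controls. Its groups overlapped. Map1lc3b had a log2 fold change of -0.079 (standard error 0.17, adjusted p = 0.828), with a 95% interval of -0.48 to 0.32.

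Gabarap was at 59.9, 242 and 258 CPM in the KO-labelled libraries and 156, 181 and 194 CPM in the controls. KO-labelled replicate 1 was the lowest of the 6 and the other KO-labelled libraries were the highest. Gabarap had a log2 fold change of 0.077 (standard error 0.52, adjusted p = 0.952), or 0.49 (adjusted p = 0.0326) without replicate 1 and -0.16 (adjusted p = 0.803) with the block. Gabarapl2 was at 24.6, 82.3 and 85.8 CPM in the KO-labelled libraries and 63.9, 87.2 and 86.96 CPM in the controls. It had the same low library, while KO-labelled replicates 2 and 3 were close to controls 2 and 3. Gabarapl1 was at 14.5, 16.3 and 17.8 CPM in the KO-labelled libraries and 14.4, 13.4 and 14.7 CPM in the controls, with overlapping groups. Gabarapl1 had a log2 fold change of 0.19 (standard error 0.16, adjusted p = 0.529). Reads of these small, closely related genes can be shared with processed copies, so their levels are uncertain.

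Of the cargo receptors, Tax1bp1 had the largest positive log2 fold change of the 33 genes with all 6 libraries. Its protein binds ubiquitin on cargo and LC3 on the membrane. Tax1bp1 was at 306, 509 and 518 CPM in the KO-labelled libraries and 167, 236 and 237 CPM in the controls. The lowest KO-labelled library was above the highest control. Tax1bp1 averaged 444 ± 120.0 CPM in the KO-labelled libraries and 213 ± 40.4 CPM in the controls (SD, n = 3 each). The log2 fold change of Tax1bp1 was 1.06 (standard error 0.28, adjusted p = 0.0709), a fitted 2.08-fold difference. It was 1.04 (adjusted p = 0.0131) with the block and 1.26 (adjusted p = 0.00447) without KO-labelled replicate 1. Over all alternatives it lay between 0.91 and 1.26.

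Sqstm1, the p62 gene, was at 319, 631 and 616 CPM in the KO-labelled libraries and 376, 505 and 468 CPM in the controls. KO-labelled replicate 1 was the lowest of the 6 libraries and replicates 2 and 3 the highest. Sqstm1 had a log2 fold change of 0.21 (standard error 0.30, adjusted p = 0.734), with a 95% interval of -0.52 to 0.95. It was 0.47 (adjusted p = 0.0658) without KO-labelled replicate 1 and 0.36 (adjusted p = 0.0135) without replicate 1 of both groups. Keap1, the partner of p62 in the NRF2 pathway, was at 44.8, 33.5 and 37.6 CPM in the KO-labelled libraries and 38.3, 32.8 and 34.4 CPM in the controls. Keap1 had a log2 fold change of 0.13 (standard error 0.17, adjusted p = 0.687).

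Nbr1, a receptor related to p62, was at 251, 214 and 210.3 CPM in the KO-labelled libraries and 211, 203 and 199 CPM in the controls. Nbr1 had a log2 fold change of 0.14 (standard error 0.15, adjusted p = 0.637). Optn encodes the receptor optineurin and was at 55.6, 72.9 and 75.5 CPM in the KO-labelled libraries and 71.6, 75.2 and 78.9 CPM in the controls. Optn had a log2 fold change of -0.15 (standard error 0.16, adjusted p = 0.654). In both genes the groups overlapped.

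**Figure D2:**
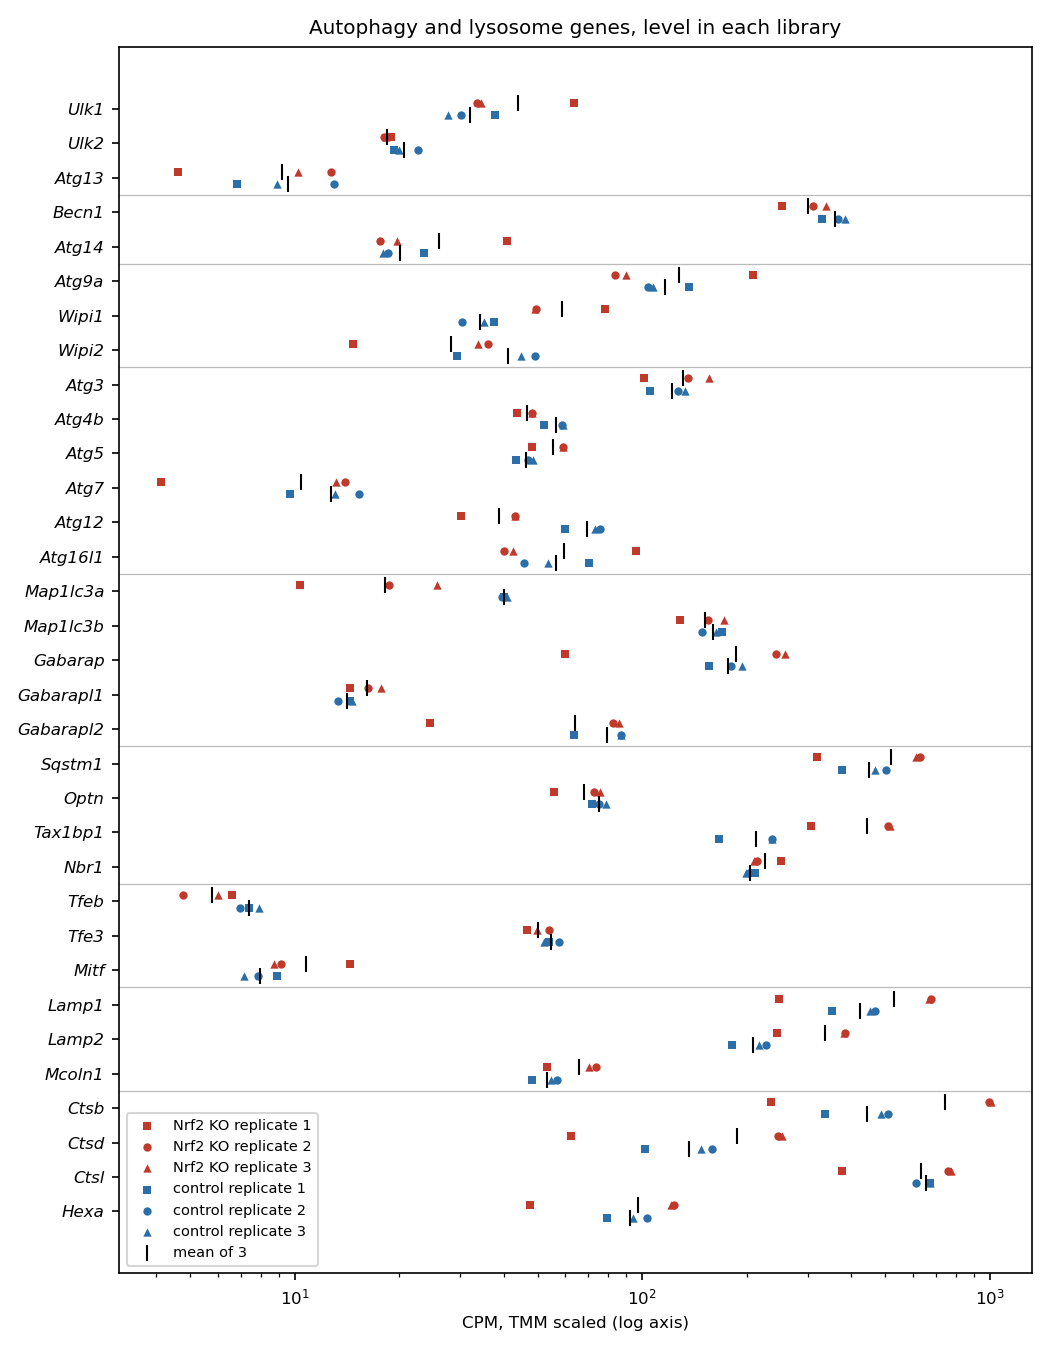
Level of each of the 33 genes in each library, in TMM-scaled CPM on a log axis, with Nrf2 KO (red) above control (blue) in every row, symbols for the replicate numbers and a black bar at the mean of 3. Red squares, Nrf2 KO replicate 1, sit apart from the other red symbols in many rows, as in Ctsb, where replicates 1 to 3 stand at 235, 995 and 1006 CPM.

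The TFEB family gave no call. Tfeb, a main activator of lysosomal genes, was at 6.61, 4.79 and 6.003 CPM in the KO-labelled libraries and 7.38, 6.95 and 7.91 CPM in the controls. All KO-labelled libraries were below the controls. Tfeb had a log2 fold change of -0.36 (standard error 0.21, adjusted p = 0.354). Tfe3, its paralog, was at 46.8, 53.8 and 49.8 CPM in the KO-labelled libraries and 54.03, 57.8 and 52.3 CPM in the controls, with overlapping groups. Tfe3 had a log2 fold change of -0.13 (standard error 0.13, adjusted p = 0.633), with a 95% interval of -0.45 to 0.20. Mitf, best known as the regulator of pigment cells, was at 14.5, 9.14 and 8.75 CPM in the KO-labelled libraries and 8.88, 7.87 and 7.14 CPM in the controls. Mitf had a log2 fold change of 0.44 (standard error 0.25, adjusted p = 0.358). The summed level of the 3 genes was 67.8, 67.7 and 64.6 CPM in the KO-labelled libraries and 70.3, 72.6 and 67.3 CPM in the controls, the narrowest spread within groups of any role. Where these proteins reside in the cell, which is how they are mainly controlled, was not measured.

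All 3 lysosomal membrane genes had positive log2 fold changes in every alternative run. LAMP2 is a glycoprotein of the lysosomal membrane, and an isoform of it is the receptor of chaperone-mediated autophagy. Lamp2 was at 244, 383 and 380.3 CPM in the KO-labelled libraries and 181, 227 and 217 CPM in the controls. Every KO-labelled library was above every control. Lamp2 averaged 336 ± 79.5 CPM in the KO-labelled libraries and 209 ± 24.2 CPM in the controls (SD, n = 3 each). The log2 fold change of Lamp2 was 0.69 (standard error 0.23, adjusted p = 0.131), or 0.66 (adjusted p = 0.0385) with the block and 0.87 (adjusted p = 0.00611) without KO-labelled replicate 1. Of these 3 genes, it was the 1 that passed with the block. Its promoter, one of those printed, holds no CACGTG.

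Lamp1, its paralog, was at 247, 678 and 669.6 CPM in the KO-labelled libraries and 352, 469 and 453 CPM in the controls. KO-labelled replicate 1 was below all controls and the other KO-labelled libraries were above them. Lamp1 had a log2 fold change of 0.32 (standard error 0.40, adjusted p = 0.691) with all libraries and of 0.66 (adjusted p = 0.0251) without that one. Mcoln1, the calcium channel TRPML1 of the lysosome, was at 53.4, 73.6 and 70.1 CPM in the KO-labelled libraries and 48.3, 56.9 and 54.5 CPM in the controls. Its groups overlapped through KO-labelled replicate 1. Mcoln1 had a log2 fold change of 0.30 (standard error 0.17, adjusted p = 0.344), or 0.43 (adjusted p = 0.0313) without that library.

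In all 4 hydrolases, KO-labelled replicate 1 was below every control and KO-labelled replicates 2 and 3 were above every control. Ctsb, the cysteine protease cathepsin B, was at 235, 995 and 1006 CPM in the KO-labelled libraries and 336, 510.2 and 485 CPM in the controls. Ctsb had a log2 fold change of 0.75 (standard error 0.54, adjusted p = 0.466), with a 95% interval of -0.57 to 2.07. It was 1.17 (adjusted p = 0.00842) without KO-labelled replicate 1 and 1.01 (adjusted p = 0.000132) without replicate 1 of both groups. Ctsd, the aspartic protease cathepsin D, was at 62.3, 245 and 253 CPM in the KO-labelled libraries and 102, 159 and 148 CPM in the controls. Ctsd had a log2 fold change of 0.46 (standard error 0.52, adjusted p = 0.661), or 0.87 (adjusted p = 0.0199) without KO-labelled replicate 1.

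Hexa, a subunit of beta-hexosaminidase, was at 47.7, 123 and 121 CPM in the KO-labelled libraries and 79.3, 103 and 94.4 CPM in the controls. Hexa had a log2 fold change of 0.077 (standard error 0.37, adjusted p = 0.932), or 0.40 (adjusted p = 0.0643) without KO-labelled replicate 1 and -0.034 (adjusted p = 0.935) with the block. Ctsl, the cysteine protease cathepsin L, was at 375, 757 and 776 CPM in the KO-labelled libraries and 673, 615 and 675 CPM in the controls. Ctsl had a log2 fold change of -0.040 (standard error 0.30, adjusted p = 0.957), or 0.22 (adjusted p = 0.204) without KO-labelled replicate 1. Summed over the 4 hydrolases, the level was 720.4, 2120.4 and 2156 CPM in the KO-labelled libraries and 1190.0, 1387 and 1403 CPM in the controls. In the mouse RefSeq table Ctsb overlaps Fdft1 and Hexa overlaps Tmem202, and 13 of the 33 genes overlap another annotated gene in all.

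Across the 33 genes, KO-labelled replicate 1 was below both of its fellow replicates in 24 (72.7%, beside 47.6% of all genes tested) and above both in 9 (27.3%, beside 45.7%). In 14 genes it differed more than 2-fold from the mean of replicates 2 and 3, with log2 ratios from -2.09 in Ctsb to 1.26 in Atg9a. The 2-fold counts, and those of control replicate 1 below or above both other controls, were not made over all genes tested. KO-labelled replicates 2 and 3 had a median absolute log2 ratio of 0.061 to each other. Control replicate 1 was below both other controls in 20 genes and above both in 8, and it differed more than 2-fold in 0 genes. Its log2 ratio had the same sign as that of KO-labelled replicate 1 in 28 of 33 genes (84.8%, beside 81.3% of the 14367 tested genes with counts in every library). Pearson's r between both ratios was 0.86 across the 33 genes and 0.76 across those 14367. The points share libraries and genes are not replicates, so the values describe these 6 libraries. Genes low in KO-labelled replicate 1 included Ctsb, Ctsd, Gabarap, Gabarapl2, Atg7 and Lamp1, and high ones Atg9a, Atg16l1 and Atg14.

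**Figure D3:**
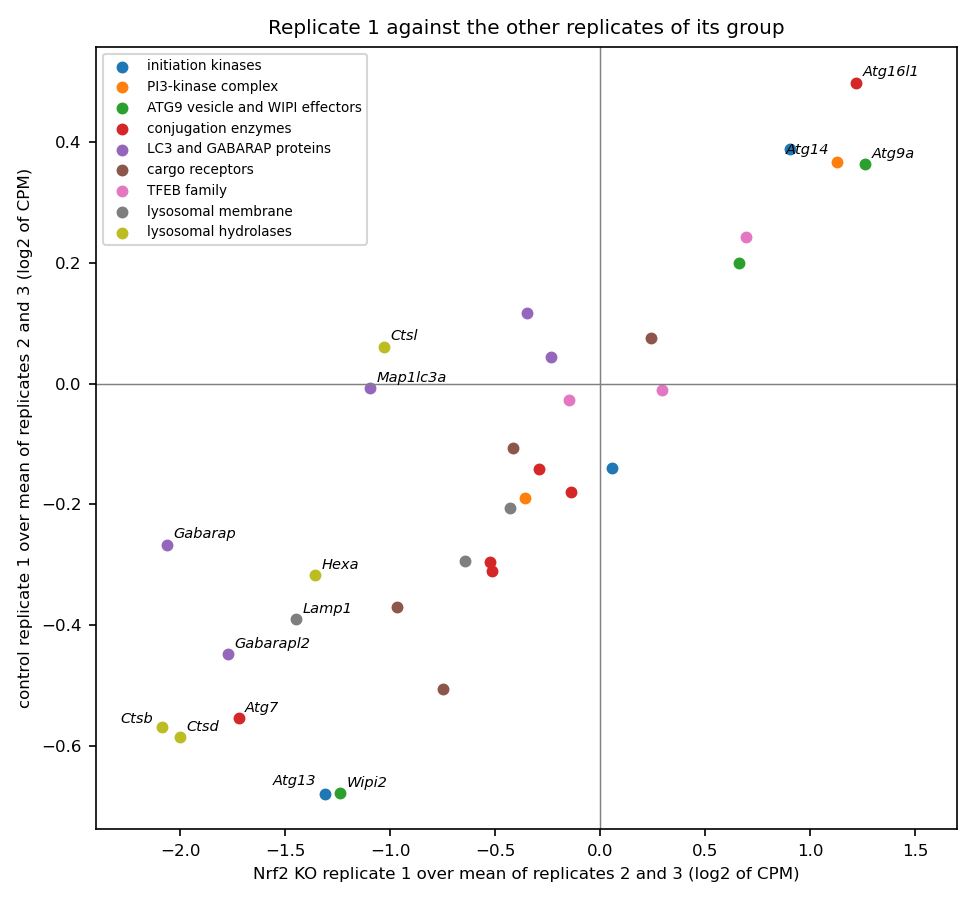
Log2 ratio of CPM in replicate 1 to the mean of replicates 2 and 3, for Nrf2 KO (x axis) and control (y axis), with 1 point per gene coloured by role and genes beyond 2-fold on the x axis named. Points run from Ctsb at the lower left, -2.09 and -0.57, to Atg9a and Atg16l1 at the upper right, and 28 of 33 have the same sign on both axes.

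The comparison was also made without that library. Without KO-labelled replicate 1, edgeR called 9 of the 33 genes higher (27.3%, beside 15.6% of all genes tested) and 2 lower (6.06%, beside 14.5%). The higher genes were Wipi1, Atg5, Gabarap, Tax1bp1, Lamp1, Lamp2, Mcoln1, Ctsb and Ctsd, and the lower genes Atg12 and Map1lc3a. These 11 hold all 5 genes called with the block. Without replicate 1 of both groups, 11 were higher (33.3%, beside 24.0%) and 5 lower (15.2%, beside 22.1%). Sqstm1 and Hexa joined the higher genes, and Atg9a, Wipi2 and Atg4b the lower. In either direction together, the shares were 33.3% beside 30.2% of all genes and 48.5% beside 46.1%, near those of all genes. Leaving out any other library gave 0 calls among the 33 genes by edgeR, with a lowest adjusted p of 0.0806. That stands beside 2.53% and 2.56% of all genes without KO-labelled replicates 2 and 3, and 2.09%, 2.02% and 1.30% without controls 1 to 3. What sets KO-labelled replicate 1 apart was not tested.

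**Figure D4:**
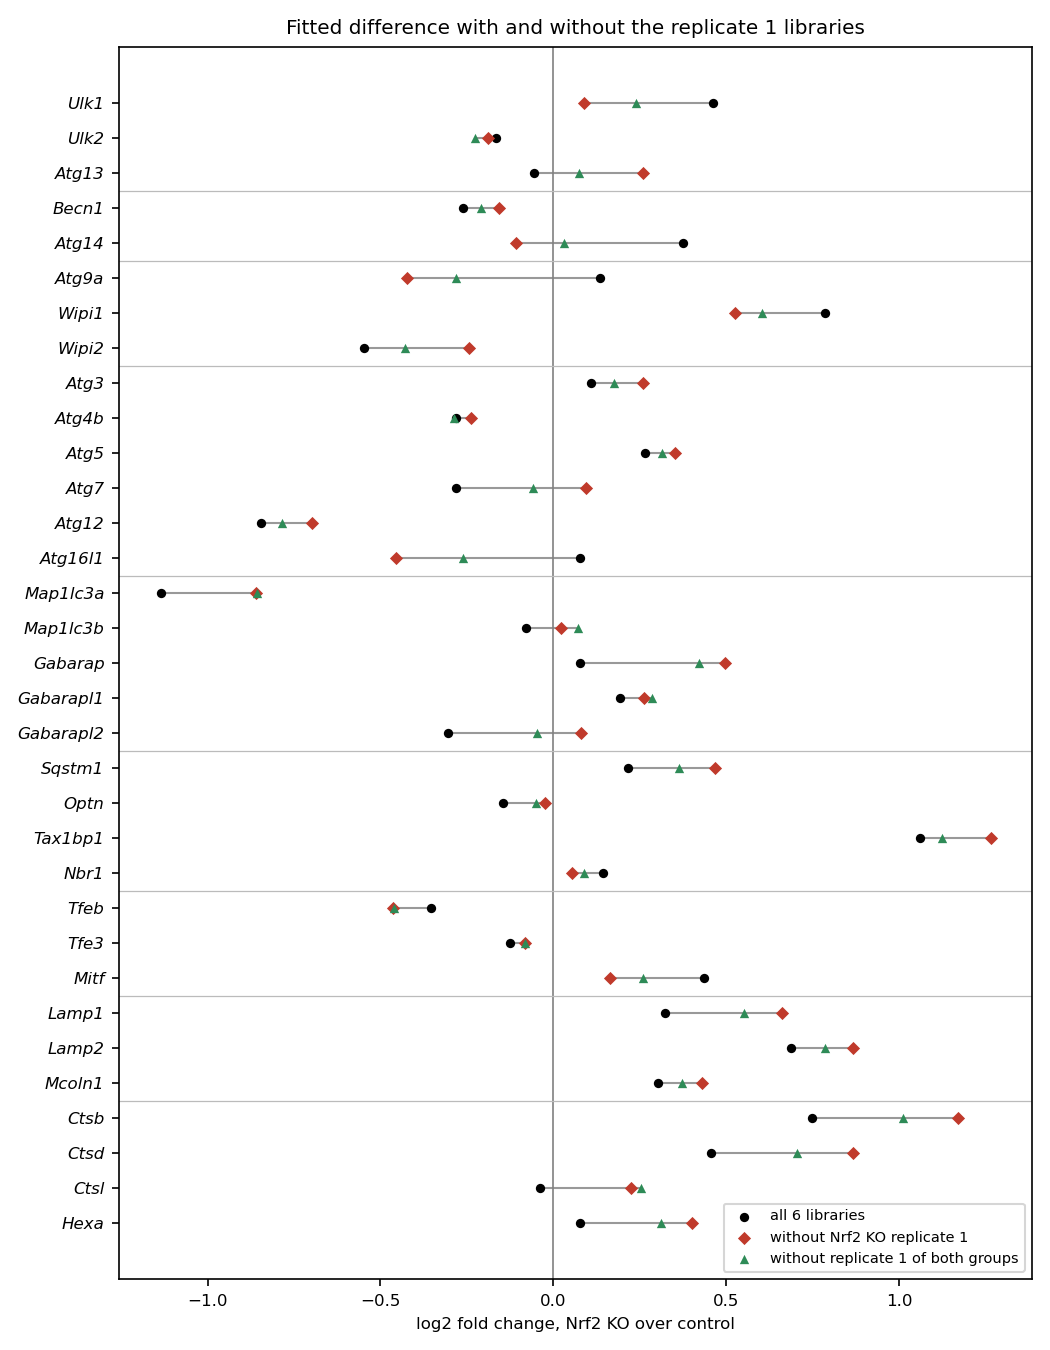
Log2 fold change of each of the 33 genes, Nrf2 KO over control, with all 6 libraries (black circles), without Nrf2 KO replicate 1 (red diamonds) and without replicate 1 of both groups (green triangles). Among others, the 3 lysosomal membrane genes, the 4 hydrolases, Gabarap and Sqstm1 move to the right without Nrf2 KO replicate 1. Without it Atg9a, Atg14 and Atg16l1 cross 0 to the left, and Tax1bp1 and Atg12 keep their sides.

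Levels of different genes can be set side by side only per length, which the authors' deposited table of FPKM gives as 1 value per group and without an error. Ctsl was the highest of the 33 genes in the authors' deposited table, with 375 FPKM in the KO-labelled group and 392 FPKM in the control. Ctsb stood second in the KO-labelled group of the authors' deposited table, with 308 FPKM in the KO-labelled group and 188 FPKM in the control. Sqstm1 stood second in the control of the authors' deposited table, with 219.7 FPKM in the KO-labelled group and 198 FPKM in the control. Gabarap, the highest of the LC3 and GABARAP genes in the authors' deposited table, had 182 FPKM in the KO-labelled group and 177 FPKM in the control. Map1lc3a had 15.1 FPKM in the KO-labelled group and 34.02 FPKM in the control in the authors' deposited table. Tax1bp1 had 123 FPKM in the KO-labelled group and 60.2 FPKM in the control in the authors' deposited table. The lowest of the 33 in the authors' deposited table was Mitf, with 1.72 FPKM in the KO-labelled group and 1.29 FPKM in the control. Tfeb was next in the authors' deposited table, with 2.03 FPKM in the KO-labelled group and 2.61 FPKM in the control, and Tfe3 had 12.2 FPKM in the KO-labelled group and 13.4 FPKM in the control. The FPKM ratio in the authors' deposited table had the direction of the fitted log2 fold change in all 33 genes, and both come from the same libraries.

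**Figure D5:**
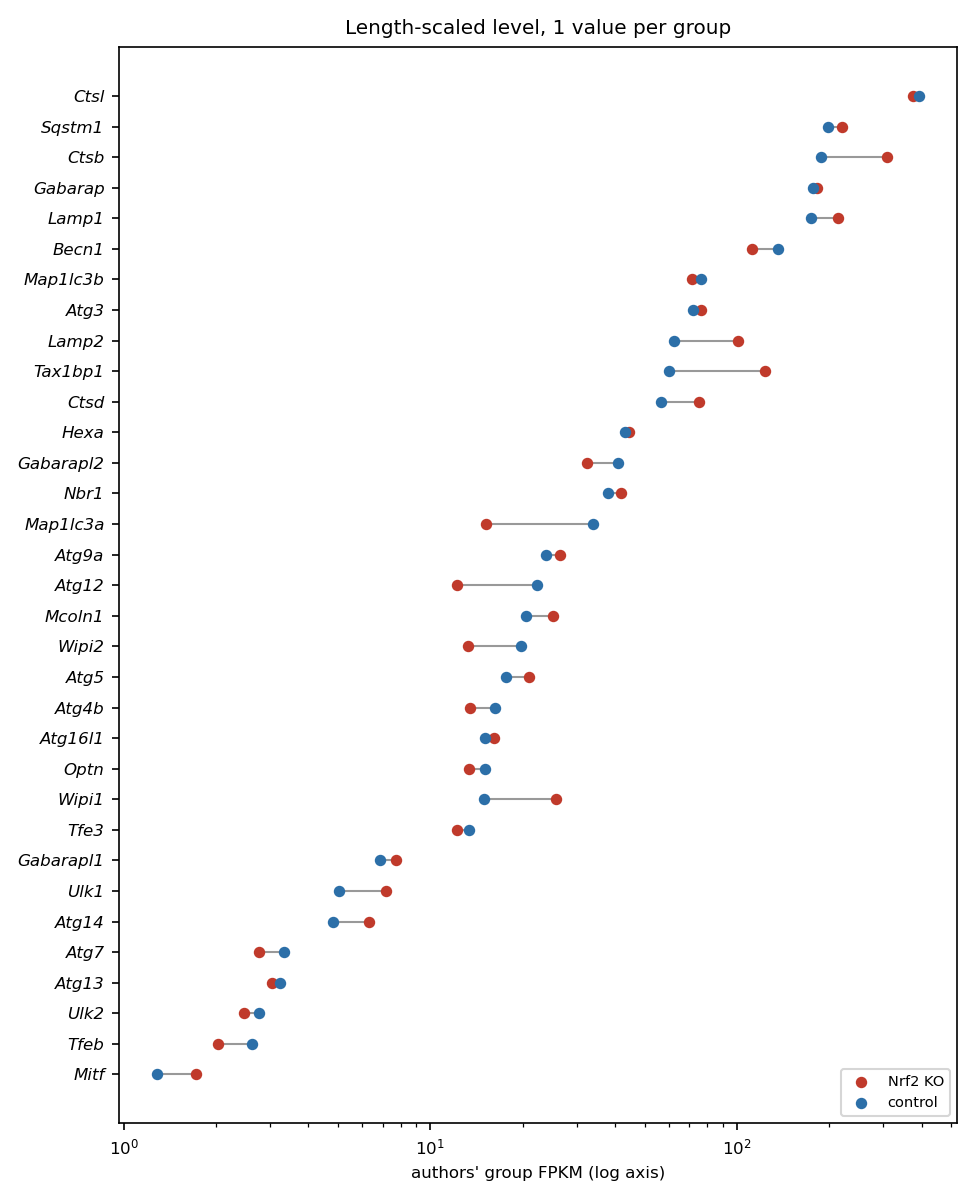
The authors' deposited FPKM of each of the 33 genes on a log axis, 1 value for Nrf2 KO (red) and 1 for control (blue), ordered by the control value. Ctsl is at the top with 375 in the group labelled Nrf2 KO and 392 in the control, and Mitf is at the bottom with 1.72 and 1.29.

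Other genes of the pathway were listed by their known roles: 176 genes, of which 174 were in the table and 163 tested. With all 6 libraries 8 were higher and 1 lower (5.52%, beside 8.28% of all genes tested), with a median log2 fold change of 0.22 beside 0.044. With the block 23 were higher and 5 lower (17.2%, beside 18.3%). Without KO-labelled replicate 1 these were 52 and 8 (36.8%, beside 30.2%), and without any 1 of the other libraries 1 to 3 higher and 0 lower. Shares of each list called are set beside the 4.83% of all genes higher and 3.45% lower. Among 27 tested genes that control mTORC1 and TFEB, 2 were higher (7.41%) and 0 lower. Tsc1, a subunit of the complex that restrains mTORC1, was at 74.98, 75.9 and 69.3 CPM in the KO-labelled libraries and 37.2, 37.8 and 38.5 CPM in the controls. Tsc1 had a log2 fold change of 0.96 (standard error 0.13, adjusted p = 0.00884). Fnip1, a partner of folliculin in the control of TFE3 and TFEB, was at 98.3, 108 and 115 CPM in the KO-labelled libraries and 75.3, 65.5 and 68.4 CPM in the controls. Fnip1 had a log2 fold change of 0.62 (standard error 0.14, adjusted p = 0.0468). Of the 6 fits that leave out a library, Tsc1 kept its call in 2 and Fnip1 in 1.

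Of 38 tested acid hydrolases beyond the 33 genes, 2 were higher (5.26%, about the share of all genes) and 0 lower. Ctso, the gene of cathepsin O, was at 14.01, 12.6 and 14.3 CPM in the KO-labelled libraries and 3.75, 3.98 and 3.76 CPM in the controls, with each group almost level. Ctso had a log2 fold change of 1.83 (standard error 0.17, adjusted p = 0.00348), and it passed in all 6 fits that leave out a library (highest adjusted p = 0.0447 by edgeR). Scpep1, a serine carboxypeptidase, was at 158, 203 and 198 CPM in the KO-labelled libraries and 81.4, 95.9 and 97.04 CPM in the controls. Scpep1 had a log2 fold change of 1.03 (standard error 0.17, adjusted p = 0.0180). Of 18 tested subunits of the vacuolar ATPase, the pump that acidifies the lysosome, 2 were higher (11.1%) and 0 lower. Atp6v1b2 was at 79.4, 114 and 110.4 CPM in the KO-labelled libraries and 33.7, 47.3 and 44.7 CPM in the controls. Atp6v1b2 had a log2 fold change of 1.27 (standard error 0.21, adjusted p = 0.0206). Atp6v0e2 had 41, 189 and 176 counts in the KO-labelled libraries and 6, 5 and 0 counts in the controls. It was called higher (adjusted p = 0.0222 by edgeR), but it passed the low-count filter only through the KO-labelled libraries. Its call therefore adds no support, and the 11.1% includes it.

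Of 19 tested genes of the lysosomal membrane and its ion channels, Tpcn1, a cation channel of endosomes and lysosomes, was the 1 call (5.26%), at 93.4, 72.7 and 67.3 CPM in the KO-labelled libraries and 48.5, 47.3 and 44.99 CPM in the controls. Tpcn1 had a log2 fold change of 0.73 (standard error 0.17, adjusted p = 0.0488). Of 11 tested genes of hydrolase sorting, Ap3d1, a subunit of the AP-3 adaptor, was the 1 call (9.09%), at 213, 198 and 173 CPM in the KO-labelled libraries and 86.9, 102 and 89.6 CPM in the controls. Ap3d1 had a log2 fold change of 1.07 (standard error 0.16, adjusted p = 0.0128). Of 6 further genes of conjugation, Tecpr1, a protein that links autophagosomes to lysosomes, was the 1 lower call (16.7%), at 36.6, 27.7 and 26.3 CPM in the KO-labelled libraries and 71.5, 55.96 and 58.03 CPM in the controls. Tecpr1 had a log2 fold change of -1.03 (standard error 0.19, adjusted p = 0.0267). In each of these genes the groups did not overlap. Ap3d1 kept its call in 2 of the 6 fits that leave out a library. Scpep1, Atp6v1b2, Atp6v0e2, Tpcn1 and Tecpr1 kept theirs in 1 each, the fit without KO-labelled replicate 1, with adjusted p-values of up to 0.243 by edgeR in the others.

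The remaining lists gave 0 calls by edgeR with all 6 libraries and no block. Named here are the 2 genes of each list with the highest CPM, which also rises with length. At an unadjusted p under 0.05, 13.4% of all genes were higher and 11.6% lower. Of 10 tested genes of the initiation complex and ATG9 vesicle, 1 was higher at that threshold (10.0%). Vmp1, a scramblase of the endoplasmic reticulum, had a log2 fold change of 0.19 (standard error 0.20, adjusted p = 0.630), and Wdr45b, a WIPI protein, of 0.11 (standard error 0.35, adjusted p = 0.893). Of 8 further genes listed with the lipid kinase complex, 2 were higher at that threshold (25.0%). Sh3glb1 had a log2 fold change of 0.46 (standard error 0.38, adjusted p = 0.534), and Rubcn, the inhibitor rubicon, of 0.77 (standard error 0.21, adjusted p = 0.0763). Of 12 selective receptors, 1 was lower at that threshold (8.33%). Phb2, a mitophagy receptor, had a log2 fold change of -0.65 (standard error 0.56, adjusted p = 0.543), and Wdfy3 of -0.055 (standard error 0.15, adjusted p = 0.870). Of 14 genes of fusion and transport, 2 were higher at that threshold (14.3%). Arl8b, which moves lysosomes, had a log2 fold change of 0.37 (standard error 0.35, adjusted p = 0.593), and Rab7a, the small GTPase of late endosomes, of 0.62 (standard error 0.24, adjusted p = 0.170). DESeq2 called 17 higher and 5 lower over all the further pathway lists (13.3%, beside 14.7% of all genes).

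Lysosomal hydrolases are abundant in macrophages and Mitf in melanocytes, so markers of those cells were read beside them. The 10 macrophage and leukocyte markers summed to 22.5, 12.3 and 13.8 CPM in the KO-labelled libraries and 21.6, 16.7 and 18.8 CPM in the controls. Of these, Adgre1 and Tyrobp were at 0 in all 6 libraries, and Ptprc was at 0.0319 CPM in KO-labelled replicate 1 and 0 in the others. Itgam, Csf1r, Lyz2 and Aif1 were under 1 CPM in each library. Lyz2 and Itgam were highest in KO-labelled replicate 1, while for Csf1r and Aif1 it was the lowest of the KO-labelled libraries. Of the 3 tested, Laptm5, a lysosomal protein of leukocytes, was lower, with a log2 fold change of -3.03 (standard error 0.30, adjusted p = 0.00393). The others did not pass: Cd14 had -0.29 (standard error 0.20, adjusted p = 0.431) and was lowest in KO-labelled replicate 1, at 7.15 CPM. Cd68, itself a lysosomal protein, had 0.52 (standard error 0.72, adjusted p = 0.730) and was at 13.6, 2.59 and 2.77 CPM in the KO-labelled libraries and 6.38, 3.06 and 3.79 CPM in the controls, highest in KO-labelled replicate 1. The 9 melanocyte markers summed to 38.1, 134 and 105 CPM in the KO-labelled libraries and 20.8, 29.4 and 24.5 CPM in the controls. Dct and Sox10 were at 0 in all 6 libraries, and Tyr, Tyrp1 and Mlana were under 0.1 CPM in each. Most of the KO-labelled sum was Gpnmb, a glycoprotein of melanosomes and lysosomes. None of the 3 tested passed with all 6 libraries and no block, and 2, Gpnmb and Kit, were called higher with the block. Gpnmb had a log2 fold change of 2.43 (standard error 0.59, adjusted p = 0.0576). Pmel, a melanosome matrix protein, had -0.48 (standard error 0.33, adjusted p = 0.434), or -0.89 (adjusted p = 0.0133) without KO-labelled replicate 1, the opposite sign. Kit, a receptor of melanocyte precursors, was at 0.255, 0.428 and 0.437 CPM in the KO-labelled libraries and 0, 0.0675 and 0 CPM in the controls. These are 8, 21 and 18 counts beside 0, 3 and 0, so Kit passed the low-count filter only through the KO-labelled libraries. Its adjusted p by edgeR (0.0520, or 0.0389 with the block) therefore adds no support. Of 4 tested neuron and glia markers, 0 were higher and 1, Gap43, was lower, with a log2 fold change of -1.97 (standard error 0.41, adjusted p = 0.0391). The part of other cells in the values of the 33 genes was not tested.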

How the data were processed

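Poly(A)-selected RNA was sequenced from 3 libraries labelled Nrf2 KO and 3 control libraries. Counts per gene symbol were used as deposited, and the submitters' processing notes name HISAT2, fastp, FastQC, DESeq2 1.34.0 and the build hg18. The sources used here give no counting tool, strand setting or annotation. The symbols follow rat usage (650 begin with RGD and 1202 with Olr, of 30438), while all 33 members are also mouse symbols. The sources used here do not say whether reads were counted on rat gene models, and reads lost unevenly would affect levels between genes more than ratios of 1 gene. The authors' deposited FPKM table holds 1 value per group, with no account of how it was made in the sources used here.

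Tests used edgeR 4.0.16 (R 4.3.3) on these counts, with filterByExpr (minimum count 10, minimum total 15), TMM scaling, the robust quasi-likelihood test, and two-sided p adjusted by Benjamini-Hochberg over 14618 genes at 0.05. Where no other tool is named, an adjusted p is from edgeR. Alternatives used DESeq2 1.42.0, limma 3.58.1 (voom), other scalings and filters, the replicate number as a block, and left-out libraries. A standard error is the log2 fold change divided by the square root of its F. The main fit took no account of replicate numbers, and same-numbered libraries were taken as pairs only in the fit with the block. Deviations of same-numbered libraries from their group means correlated at 0.754, 0.696 and 0.310 across genes. Deviations within a group cancel out, so these values depend on each other. The labels do not say what a number marks. The deviations do not tie replicates 2 and 3 by number: the value for KO-labelled replicate 3 and control replicate 2 was 0.539, above the 0.310 of the same-numbered pair, and that for KO-labelled replicate 2 and control replicate 3 was 0.278. Pairs of replicate 1 with another number lay between -0.749 and -0.318. No 2 libraries agreed within sampling noise (smallest chi-square per degree of freedom 14.3).

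The members and lists were chosen with earlier results of these data known. Values in every library are given for members called in either fit, for Sqstm1, Tfeb, Tfe3, Mitf, Lamp1 and Ctsd, and for the 2 members of each role with the highest CPM. Those of the other members were added after they were seen. In each further list up to 4 called genes are named, or the 2 with the highest CPM. Matching used older mouse names for 4 list genes.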

Additional observations from a re-analysis of the deposited data

How the results depend on the processing

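Counts of calls depended most on the libraries used. Over all 14618 genes tested, edgeR called 706 higher and 505 lower. With 1 library left out at a time it called 139 to 2323 higher and 57 to 2162 lower over all genes, 0 to 9 and 0 to 2 of the 33 genes, and 1 to 52 and 0 to 8 of the other pathway genes, in each case with the highest count without KO-labelled replicate 1. Without replicate 1 of both groups these counts were 3540 and 3253, 11 and 5, and 81 and 15. The replicate block, which treats same-numbered libraries as pairs, gave 1520 and 1158, 3 and 2, and 23 and 5. DESeq2 gave 1420 and 1107, 2 and 2, and 17 and 5. With RLE size factors, the upper quartile, library size alone or a filter of 1 CPM, 1 of the 33 was lower, Atg12. Lower calls among the other pathway genes numbered 4 with the upper quartile, 3 with library size alone and 2 with the 1 CPM filter. Nfe2l2 missed the threshold at a log2 fold change of 1.45 with the upper quartile and 1.499 with library size alone, and lay between 1.15 and 1.71 with 1 library left out. Direction turned in at least 1 alternative for 11 of the 33 genes, none of them called with all 6 libraries. With 1 library left out, their log2 fold changes ranged from -0.36 to 0.26 for Atg13, -0.11 to 0.59 for Atg14, -0.42 to 0.36 for Atg9a, -0.035 to 0.26 for Atg3, -0.55 to 0.093 for Atg7, -0.46 to 0.29 for Atg16l1, -0.18 to 0.023 for Map1lc3b, -0.23 to 0.49 for Gabarap, -0.57 to 0.080 for Gabarapl2, -0.21 to 0.22 for Ctsl and -0.13 to 0.40 for Hexa. Without replicate 1 of both groups they turned to 0.074 for Atg13, -0.28 for Atg9a, -0.26 for Atg16l1, 0.072 for Map1lc3b and 0.25 for Ctsl. With limma-voom and with the block, they turned to -0.028 and -0.022 for Atg16l1, -0.22 and -0.16 for Gabarap, and -0.048 and -0.034 for Hexa. The cause was not tested. The lowest single count of the 33 genes was 129, for Atg7 in KO-labelled replicate 1. How much of the spread between libraries is counting error was not measured gene by gene.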

Other observations

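Gpnmb, which encodes a glycoprotein of melanosomes and lysosomes and stood in the melanocyte list, was at 28.1, 129 and 99.4 CPM in the KO-labelled libraries and 10.7, 21.4 and 15.4 CPM in the controls. Every KO-labelled library was above every control, and KO-labelled replicate 1 was the lowest of its group. Gpnmb had a log2 fold change of 2.43 (standard error 0.59, adjusted p = 0.0576) in edgeR's test, with an adjusted p of 0.0145 with the replicate block and 0.00127 without KO-labelled replicate 1. Laptm5 was at 0.511, 0.326 and 0.559 CPM in the KO-labelled libraries and 3.70, 4.16 and 3.56 CPM in the controls, the opposite order. The choice of this pair followed a look at the values.

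Some other pathway genes passed with the block and not without it. Gaa, the acid alpha-glucosidase, was at 50.1, 146 and 136 CPM in the KO-labelled libraries and 39.8, 63.1 and 56.3 CPM in the controls. Gaa had a log2 fold change of 1.06 (standard error 0.42, adjusted p = 0.186), and an adjusted p of 0.0463 with the block. Deptor, an inhibitor of mTOR, was at 4.47, 9.12 and 7.75 CPM in the KO-labelled libraries and 13.1, 21.5 and 17.995 CPM in the controls. Deptor had a log2 fold change of -1.30 (standard error 0.33, adjusted p = 0.0650), and an adjusted p of 0.00903 with the block. Rraga, a small GTPase that brings mTORC1 to the lysosome, was at 112, 98.7 and 109 CPM in the KO-labelled libraries and 178, 147 and 175 CPM in the controls. Rraga had a log2 fold change of -0.64 (standard error 0.15, adjusted p = 0.0531), and an adjusted p of 0.0234 with the block. These p-values are edgeR's, and these 3 genes too were chosen with their values in view.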
